A study of Mus musculus with 8 samples.

Results

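Hippo pathway genes were examined across all 8 libraries of a mouse blood stem cell experiment. They are the targeted co-activators Yap1 and Wwtr1, the kinases Stk3, Stk4, Lats1 and Lats2, the adaptors Sav1, Mob1a and Nf2, and the DNA-binding partner Tead2. These 10 genes were chosen by symbol from the 33641 gene symbols of each library, and all 10 were found. Messenger RNA had been sequenced from haematopoietic stem cells sorted from bone marrow, with 2 libraries for each of 4 genotypes on the C57BL/6 strain. The genotypes were Scribble-/- (called Scribble null here), Taz-/-;Yap1-/- (Yap1 Taz null), Scribble-/-;Taz-/-;Yap1-/- (triple null) and wild type as the reference. Every mouse, wild type included, is described as carrying Mx1-Cre, a recombinase driven by an interferon-inducible promoter that acts in many tissues besides blood stem cells. PolyI:C, an inducer of interferon, was injected 6 times at 10 mg/kg, and cells were taken 1 week after induction. The labels number the 2 libraries of each genotype Exp#1 and Exp#2, and do not state whether they are from different mice. The p-values therefore cover library-to-library spread alone, possibly technical. Levels are TPM, transcript abundance per length scaled to 1000000 per library. Depth cannot be read from TPM and is unknown here.

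In the Hippo pathway, the kinases MST1 (gene Stk4) and MST2 (Stk3), held by the scaffold SAV1, activate LATS1 and LATS2, which also need the MOB1 adaptors. NF2, also called merlin, recruits LATS kinases to the membrane. LATS kinases phosphorylate the co-activators YAP1 and TAZ (gene Wwtr1), which are then kept in the cytoplasm or degraded. Unphosphorylated YAP1 and TAZ enter the nucleus and bind TEAD factors, since they have no DNA-binding domain of their own. Scribble, the third targeted gene, is a polarity scaffold that has been linked to assembly of this kinase cascade in epithelial cells.

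The libraries carried the markers of the labelled cells. All 13 stem cell markers examined reached 1 TPM, among them Slamf1, Kit, Ly6a and Procr, and their summed level was 1818 to 2156 TPM. Of 10 stromal markers 5 reached 1 TPM in any library, with Col3a1 listed at 0 in all 8 and sums of 11.5 to 17.1 TPM in Scribble null, 12.9 to 15.0 in Yap1 Taz null, 14.7 to 20.8 in triple null and 13.3 to 14.9 in wild type. Of 10 endothelial markers 6 reached 1 TPM, with sums of 91.1 to 167 TPM, and Cdh5 stayed under 1 TPM in all libraries. Megakaryocyte markers summed to 465 to 476 TPM in Scribble null, 622 to 626 in Yap1 Taz null, 500.2 to 531 in triple null and 1156 to 1300.4 in wild type. Erythroid markers summed to 358 to 359, 522 to 541, 471 to 524 and 489.9 to 512 TPM in the same order, and myeloid markers to 597 to 799, 426 to 476, 549.99 to 616 and 393 to 458 TPM. B cell sums were 13.5 to 23.5 TPM over all libraries and T and NK cell sums 73.7 to 163 TPM. By limma, 3 of 8 myeloid markers tested were called higher in Scribble null than in wild type, against 0.591% of all genes. Without overlap, 5 of the 8 lay higher and 1 lower. The lower one was Cd14, with a log2 difference of -1.51 (adjusted p = 0.210), and Lyz2 overlapped wild type, at -0.07. Of 7 megakaryocyte markers tested, Pf4 was called lower than wild type in all 3 null genotypes, with a departure from additivity that was also called, and Itgb3 higher in Scribble null. Genes called lower were 0.71%, 0.517% and 0.355% of all genes in Scribble null, Yap1 Taz null and triple null. Pf4 carried the high megakaryocyte sum of wild type, at 816 and 958 TPM against 94.9 to 222 TPM in the null libraries. Wild-type values of Gp9, Itga2b and Vwf lay within the range of the null libraries, and those of Itgb3 below it. Gp1bb was highest in wild type 1, at 14.5 TPM. Nkg7, a T and NK cell marker, was called lower in Yap1 Taz null than in wild type, and the stem cell marker Procr higher in triple null than in Yap1 Taz null. The part of these markers in the results below was not tested. The Y-linked genes Eif2s3y and Ddx3y were at 2.05 to 4.63 TPM in both Yap1 Taz null libraries and at 18.1 to 64.1 TPM in the other 6, and Uty was at 10.6 to 20.0 against 25.2 to 44.8 TPM. A difference in sex and the genotype cannot be told apart in any comparison with these libraries.

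The cascade was unevenly expressed, with abundant kinases and adaptors above scarce co-activators. Averaged over 8 libraries, Stk4 stood highest at 118 TPM and Mob1a next at 98.8 TPM, the 93.2 and 91.4 percentiles of the 16064 genes tested. Tead2 averaged 32.7 TPM, Stk3 27.4, Sav1 25.8, Nf2 24.2, Lats1 23.2 and Lats2 14.1 TPM. Neighbours from Tead2 down to Lats1 were not ordered beyond their spread, since each exceeded the next in 4 or 5 of 8 libraries. Lats1 exceeded Lats2, Lats2 exceeded Yap1 and Mob1a exceeded Tead2 in all 8 libraries. Stk4 exceeded Mob1a in 7 of 8. Yap1 averaged 3.23 TPM and Wwtr1 2.01 TPM, at the 24.6 and 17.9 percentiles, and Yap1 exceeded Wwtr1 in 7 of 8 libraries.

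**Figure D1:**
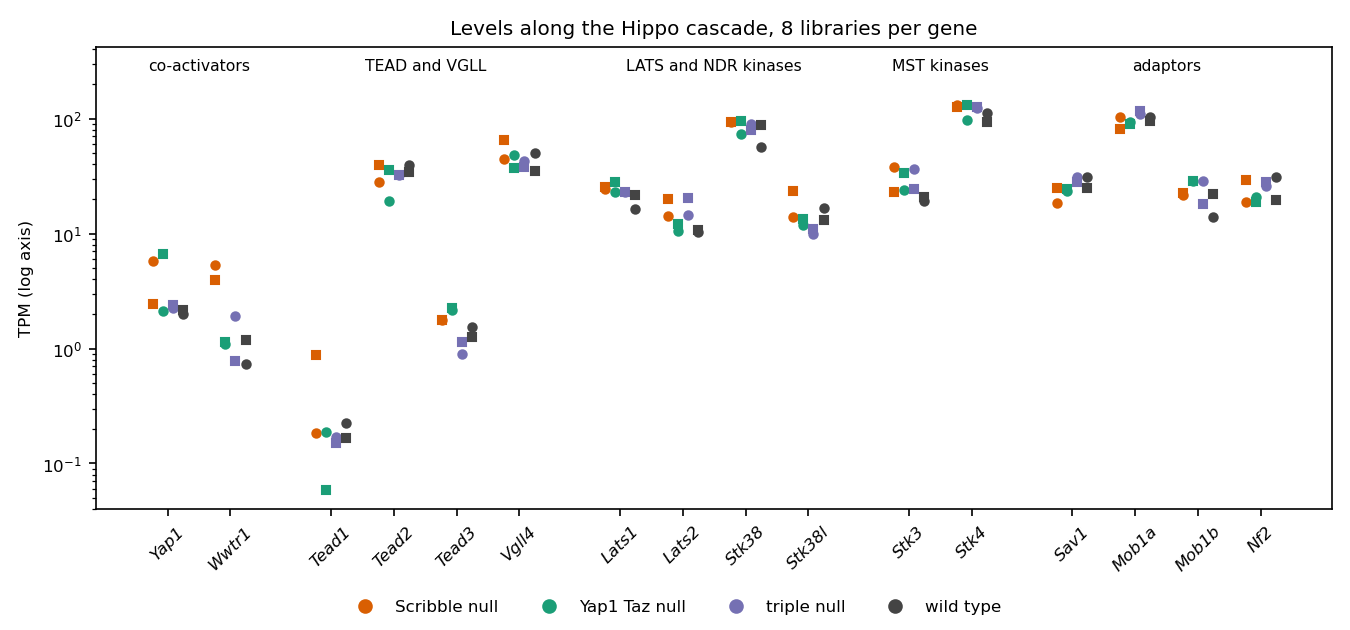
TPM on a log axis of Hippo genes and their closest relatives, grouped by role, with a symbol per library (circle library 1, square library 2) coloured by genotype. The co-activators lie under 7 TPM in all libraries, while Stk4, Mob1a and Stk38 lie between 56.7 and 131 TPM.

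Paralogues differed in share. STK4 is the paralogue of STK3, and its transcript was 77.1 to 85.2% of the sum of both in every library. Lats1 was 1.14 to 2.30 times Lats2, and Mob1a was 3.13 to 7.31 times its paralogue Mob1b. Tead2 made up 89.1 to 96.8% of the summed TEAD transcripts, with Tead4 listed at 0 in all libraries, Tead1 at 0.0586 to 0.873 TPM and Tead3 at 0.895 to 2.24 TPM. Lats1 and Lats2 together exceeded Yap1 and Wwtr1 together in all 8 libraries, by 3.49 times in Scribble null 1 and up to 13.8 times in triple null 2. In wild type this ratio was 9.76 in both libraries.

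The targeted genes were first read in the libraries whose labels name them. Yap1 (ENSMUSG00000053110, mm10 chromosome 9, 7931999 to 8004596) stood at 2.13 and 6.63 TPM in Yap1 Taz null and 2.25 and 2.37 TPM in triple null, against 2.00 and 2.15 TPM in wild type. No library labelled as lacking Yap1 was below both wild-type libraries, and the highest of all 8 was Yap1 Taz null 2. Deletion of part of a gene can leave its total TPM in place, which makes these values no check of the labels, and directions are between libraries as labelled. Scrib (ENSMUSG00000022568) was 6.25 and 7.63 TPM in Scribble null, 14.5 and 7.54 in triple null and 8.19 and 9.29 TPM in wild type. The Scribble null libraries lay under the wild-type ones, with a log2 difference of -0.30 (95% interval -1.06 to 0.46) that did not pass the test (limma, adjusted p = 0.669). In the table of the whole series, in its unnamed unit, they overlapped, at 5.82 and 6.84 in Scribble null, against 6.45 and 8.07 in wild type.

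Yap1 also differed between libraries of the same genotype. It was 5.83 and 2.45 TPM in Scribble null, so that Scribble null 1 and Yap1 Taz null 2 stood at 5.83 and 6.63 TPM while the other 6 libraries lay between 2.00 and 2.45 TPM. The log2 difference between Scribble null and wild type was 0.66, with an interval of -0.49 to 1.80 (limma, adjusted p = 0.521). For triple null it was 0.11, with an interval of -1.04 to 1.25, and it fell to -0.07 after quantile normalization. Stromal marker sums were 17.1 and 15.0 TPM in the pair of libraries with high Yap1 and 11.5 to 20.8 TPM in the other 6. Fewer cells of a type and less RNA per cell cannot be told apart in these bulk libraries.

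Wwtr1 (ENSMUSG00000027803, chromosome 3, 57455649 to 57575910) had the largest difference from wild type among the 10 genes, and it lay in Scribble null. Its level was 5.32 and 3.91 TPM in Scribble null, 1.09 and 1.15 TPM in Yap1 Taz null, 1.92 and 0.775 TPM in triple null, and 0.730 and 1.19 TPM in wild type. Both Scribble null libraries exceeded each of the other 6, whose values overlapped across their 3 genotypes. Scribble null averaged 4.62 ± 1.000 TPM and wild type 0.959 ± 0.323 TPM (SD, n = 2 each). The log2 difference was 1.52 with an interval of 0.66 to 2.37, and it did not pass the test over all genes (limma, adjusted p = 0.101). It stayed between 1.29 and 2.17 under all alternatives run, with adjusted p of 0.112 to 0.415. Both libraries labelled Yap1 Taz null were within the wild-type range of this gene.

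**Figure D2:**
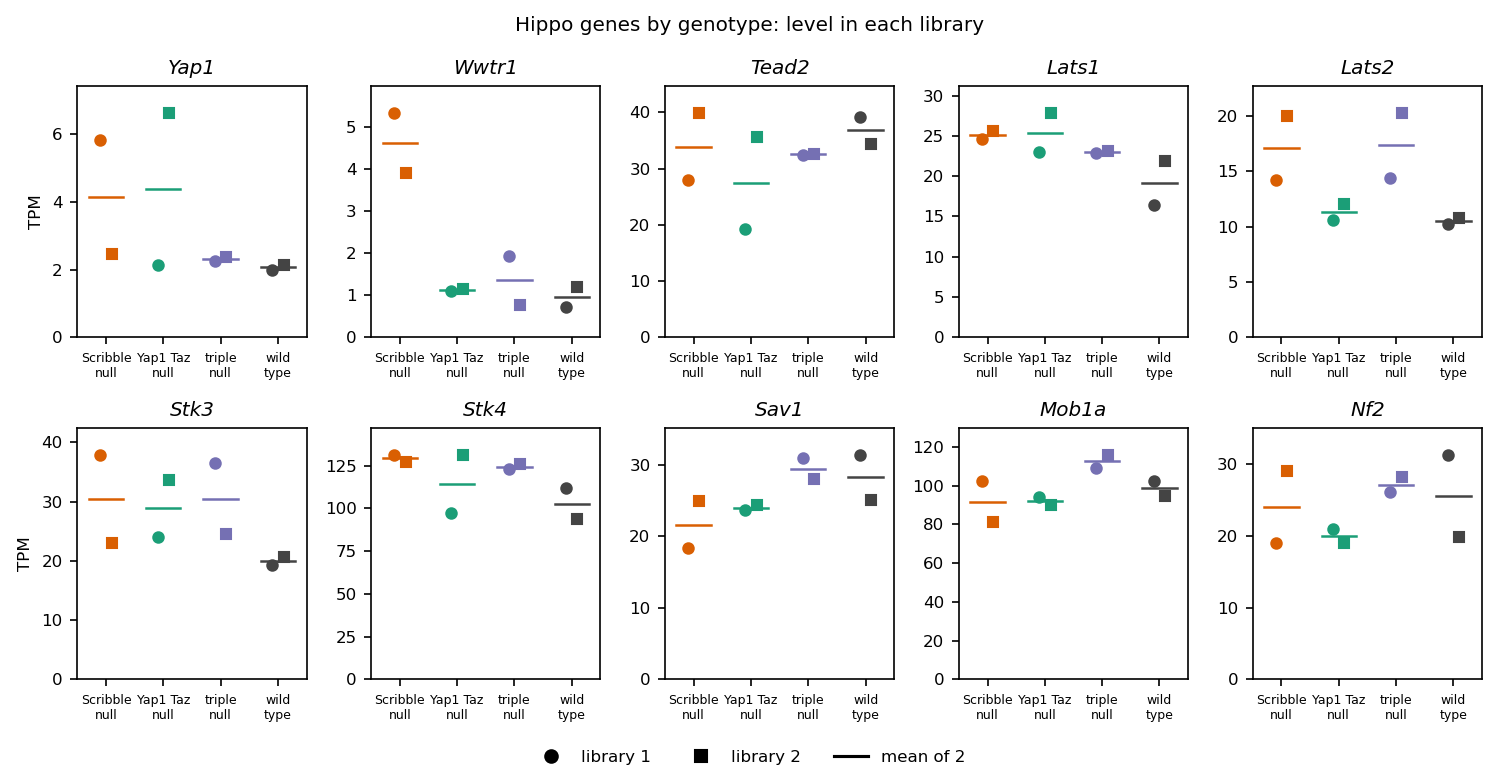
TPM of each of the 10 Hippo genes by genotype on linear axes from 0, with a circle and a square for the 2 libraries and a line at their mean. Wwtr1 is at 3.91 and 5.32 TPM in Scribble null and at or under 1.92 TPM in all other libraries, while Yap1 is high in 1 library each of Scribble null and Yap1 Taz null.

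The stretch before the transcription start of both co-activator genes holds the hexamer GGAATG, the core of the element that TEAD factors bind. So do a start region of Lats2 and that of Cyr61. These 4 are shown because YAP1 and TAZ act through this element, because LATS2 is a known target of the pathway that it restrains, and because Cyr61 was the target with a called change. Sequences are from RefSeq on GRCm38.p6, all on the minus strand, written 5′ to 3′ with the hexamer or its reverse complement CATTCC in capitals. Yap1 is chr9:8004597-8004846, Wwtr1 is chr3:57575911-57576160, Lats2 is chr14:57746114-57746373 and Cyr61, named Ccn1 by RefSeq, is chr3:145649986-145650235.
Yap1: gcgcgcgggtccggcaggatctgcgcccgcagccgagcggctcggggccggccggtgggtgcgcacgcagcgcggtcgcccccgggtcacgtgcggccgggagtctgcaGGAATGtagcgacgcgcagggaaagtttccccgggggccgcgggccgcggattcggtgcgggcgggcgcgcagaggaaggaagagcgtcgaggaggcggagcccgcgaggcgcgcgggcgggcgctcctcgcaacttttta
Wwtr1: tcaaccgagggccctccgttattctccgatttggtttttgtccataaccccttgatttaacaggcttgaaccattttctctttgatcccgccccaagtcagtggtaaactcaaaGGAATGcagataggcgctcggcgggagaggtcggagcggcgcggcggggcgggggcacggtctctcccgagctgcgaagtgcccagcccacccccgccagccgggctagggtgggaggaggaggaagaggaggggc
Lats2: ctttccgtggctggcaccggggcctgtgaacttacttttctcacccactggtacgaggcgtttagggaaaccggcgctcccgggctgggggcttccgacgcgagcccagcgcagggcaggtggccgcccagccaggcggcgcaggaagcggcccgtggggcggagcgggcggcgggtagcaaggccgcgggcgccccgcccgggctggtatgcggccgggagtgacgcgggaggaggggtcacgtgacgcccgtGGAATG
Cyr61: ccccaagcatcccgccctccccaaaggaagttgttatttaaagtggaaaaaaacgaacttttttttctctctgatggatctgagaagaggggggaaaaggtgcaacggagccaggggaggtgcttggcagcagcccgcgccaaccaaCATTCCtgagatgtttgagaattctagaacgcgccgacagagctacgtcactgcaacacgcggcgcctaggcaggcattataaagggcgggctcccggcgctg
The hexamer begins 141 bases before the start in Yap1, 136 before it in Wwtr1 and 103 before it in Cyr61, and 4 bases after the start shown for Lats2. A second start of Lats2, with its window at chr14:57734369-57734668, had no hexamer. Both strands were searched in windows of 250 bases before to 50 after each start, and these letters cannot overlap their own reverse complement. Of the 10 Hippo genes 9 had a window, Stk3 not among them, and 5 of these held the hexamer, the other two being Sav1 and Mob1a. Over all 27025 genes with a window, 16.6% held it. A match is a description of letters in this window and not a site shown to be bound.

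Tead2 (ENSMUSG00000030796, chromosome 7, 45215753 to 45233644), the main TEAD transcript in these cells, was, of the 10, the gene that differed most between the deposited tables. In the per-library gene tables it was 27.9 and 39.9 TPM in Scribble null, 19.2 and 35.6 in Yap1 Taz null, 32.5 and 32.6 in triple null and 39.2 and 34.3 TPM in wild type. Values of Scribble null and Yap1 Taz null overlapped those of wild type, and both triple null values lay just below them. The log2 differences from wild type were -0.13 in Scribble null, -0.47 in Yap1 Taz null and -0.17 in triple null, and none passed the test (limma, adjusted p = 0.846, 0.511 and 0.878). Their 95% intervals reached from -0.82 to 0.55, from -1.16 to 0.22 and from -0.85 to 0.52.

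The authors also deposited a table of the whole series with linear values in a unit its header does not name. There Tead2 stood at 70.7 and 84.3 in Scribble null, 40.0 and 62.8 in Yap1 Taz null, 52.9 and 48.4 in triple null, and 33.6 and 48.2 in wild type. Both Scribble null values were above all other libraries, and the log2 difference from wild type was 0.92, 0.31 and 0.32 in the same order of genotypes, none past the test (limma, adjusted p = 0.150, 0.576 and 0.686). The ratio of the tables moved over libraries by a log2 range of 1.57 for Tead2, and 2.57% of 9078 genes compared had a wider one. For Wwtr1 that range was 0.31, and for Stk3 0.16. Tead2 has 17 annotated transcripts in GENCODE M21, 9 of them coding, and overlaps the end of Cd37 by 13 bases on the opposite strand. The part of transcript assignment in this difference was not tested.

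**Figure D3:**
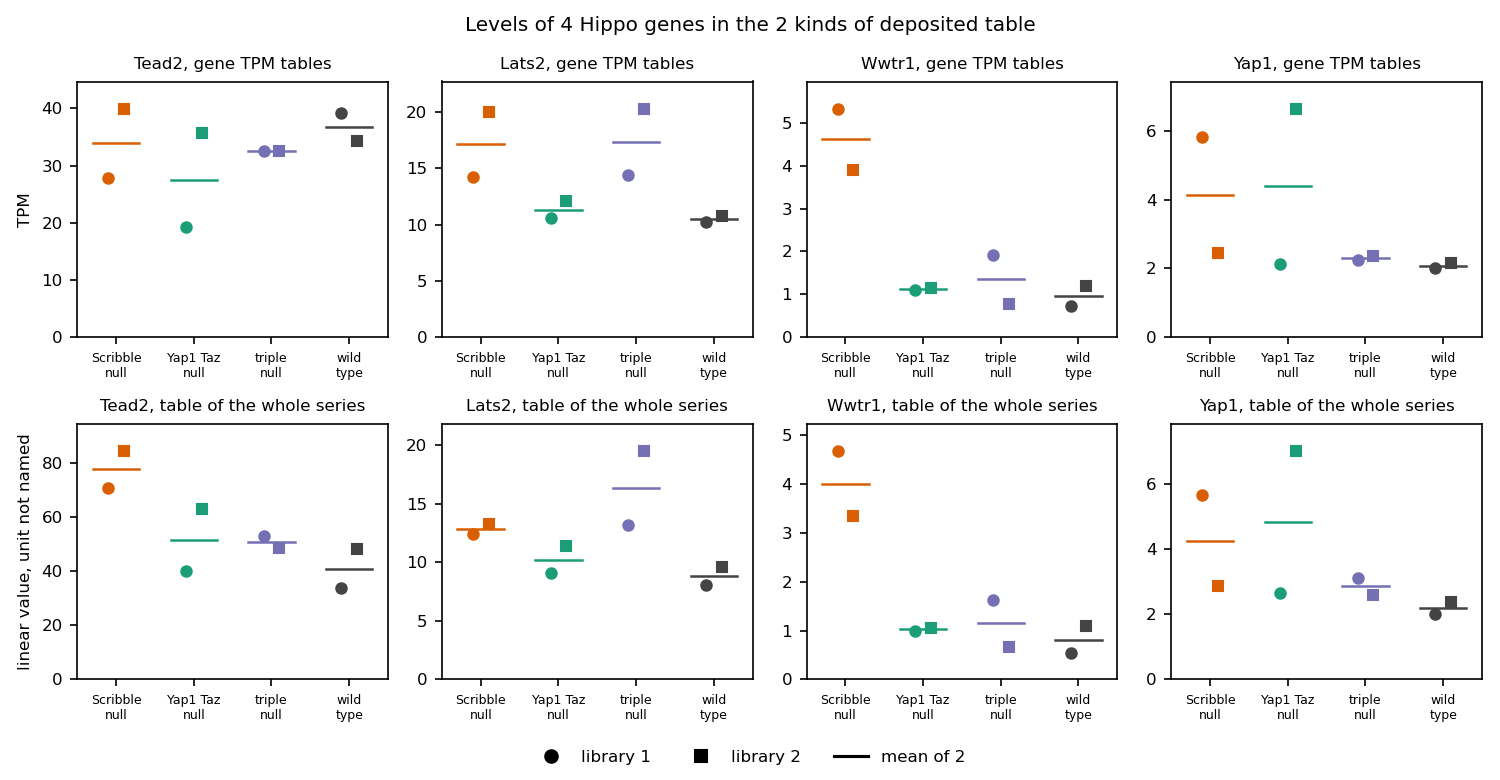
Levels of Tead2, Lats2, Wwtr1 and Yap1 in each library, as TPM in the upper row and as the linear values of the table of the whole series in the lower row, with lines at the mean of 2 libraries. Tead2 in Scribble null is 27.9 and 39.9 TPM, overlapping the other genotypes, but 70.7 and 84.3 in the lower row, above all other libraries.

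Of the LATS kinases, which phosphorylate YAP1 and TAZ, Lats2 had the larger log2 differences from wild type in Scribble null and triple null and overlapped wild type in Yap1 Taz null. Lats2 (ENSMUSG00000021959) was 14.2 and 20.0 TPM in Scribble null, 10.6 and 12.1 in Yap1 Taz null, 14.4 and 20.3 in triple null, and 10.3 and 10.8 TPM in wild type. All 4 libraries labelled as lacking Scribble were above the 4 others. The log2 difference from wild type was 0.64 (0.02 to 1.25) in Scribble null and 0.66 (0.04 to 1.27) in triple null, with unadjusted p of 0.0438 and 0.0395 that did not pass over all genes (limma, adjusted p = 0.260 and 0.422). Between triple null and Yap1 Taz null it was 0.56 (-0.06 to 1.17, adjusted p = 0.645). Lats2 shares 2956 bases of identical transcript with the overlapping gene model Gm49361, which leaves its level uncertain.

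Lats1 (ENSMUSG00000040021) was 24.6 and 25.6 TPM in Scribble null, 22.9 and 27.8 in Yap1 Taz null, 22.8 and 23.1 in triple null, and 16.4 and 21.8 TPM in wild type. In TPM, all 6 null libraries were above both wild-type ones. Yap1 Taz null 1 and both triple null libraries, at 22.8 to 23.1 TPM, were only just above wild type 2, at 21.8 TPM. TPM of a typical gene ran lower in wild type, and this order was not rechecked after rescaling of the libraries. It may therefore not hold beyond unscaled TPM. The log2 differences were 0.39 (-0.10 to 0.88), 0.40 (-0.09 to 0.88) and 0.27 (-0.22 to 0.75), none past the test (limma, adjusted p = 0.372, 0.436 and 0.680).

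The MST kinases act one step above LATS. Stk3 (ENSMUSG00000022329) was 37.9 and 22.9 TPM in Scribble null, 24.1 and 33.7 in Yap1 Taz null, 36.4 and 24.5 in triple null, and 19.4 and 20.6 TPM in wild type. All 6 null libraries exceeded wild type, but the 2 libraries of each null genotype lay further apart than those of wild type. The log2 differences were 0.54 (-0.16 to 1.24), 0.49 (-0.21 to 1.19) and 0.56 (-0.14 to 1.25; limma, adjusted p = 0.386, 0.501 and 0.549). Stk4 (ENSMUSG00000018209) was 131 and 127 TPM in Scribble null, 97.5 and 131 in Yap1 Taz null, 123 and 126 in triple null, and 112 and 93.5 TPM in wild type. In TPM it was above wild type in both libraries of Scribble null and of triple null, by 0.33 (-0.06 to 0.73) and 0.28 (-0.11 to 0.67) on the log2 scale, and overlapped it in Yap1 Taz null (limma, adjusted p = 0.344 and 0.589 for the first and the second). TPM of a typical gene ran lower in wild type. The separations of Stk3 and Stk4 were not rechecked after rescaling of the libraries and may follow that shift.

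Of the adaptors, Sav1 (ENSMUSG00000021067), which brings MST kinases together, was 18.3 and 24.9 TPM in Scribble null, 23.6 and 24.4 in Yap1 Taz null, 30.9 and 28.0 in triple null, and 31.4 and 25.1 TPM in wild type. Scribble null and Yap1 Taz null were both below wild type, by -0.38 (-0.88 to 0.12) and -0.22 (-0.72 to 0.28) on the log2 scale, while triple null overlapped it (limma, adjusted p = 0.395 and 0.681). Sav1 shares 1300 bases with Atl1 on the opposite strand, and whether counting used strand is not given in the sources used here. Mob1a (ENSMUSG00000043131), which activates LATS kinases, was 103 and 81.2 TPM in Scribble null, 94.3 and 90.3 in Yap1 Taz null, 109 and 116 in triple null, and 103 and 94.6 TPM in wild type. Triple null was the highest genotype, 0.19 above wild type (-0.16 to 0.54, adjusted p = 0.680), and Yap1 Taz null lay 0.09 below it (-0.44 to 0.25, adjusted p = 0.809). In the table of the whole series Mob1a in Yap1 Taz null was above wild type instead, by 0.030 on the log2 scale. Nf2 (ENSMUSG00000009073) was 19.0 and 29.1 TPM in Scribble null, 21.0 and 18.9 in Yap1 Taz null, 26.1 and 28.2 in triple null, and 31.3 and 19.8 TPM in wild type, and no null genotype stood clear of wild type.

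Counted over the 10 genes, none was called in any comparison by limma at an adjusted p under 0.05. For Scribble null against wild type 0 of 10 were called, against 1.3% of all genes tested, and 2 of 10 had an unadjusted p under 0.05, against 18.2% of all genes. For Yap1 Taz null the counts were 0 called, against 0.99% of all genes, and 0 at an unadjusted p under 0.05, against 14.3%. For triple null they were 0 called, against 0.579%, and 1 at an unadjusted p under 0.05, against 10.9%. The groups did not overlap for 6 genes higher and 1 lower in Scribble null, 2 and 2 in Yap1 Taz null and 6 and 1 in triple null. In the table of the whole series these counts were 7 and 1 in Scribble null, 4 and 0 in Yap1 Taz null and 7 and 0 in triple null, with Sav1 overlapping and Mob1a higher in Yap1 Taz null, and Tead2 higher in Scribble null and triple null. Over all genes the TPM shares were 33.2% and 15.7% for Scribble null, 32% and 14.5% for Yap1 Taz null and 30.9% and 14.2% for triple null. The median log2 difference of the 10 genes was 0.36, 0.11 and 0.21 in the same order, beside 0.14, 0.14 and 0.12 over all genes. These comparisons share the wild-type libraries. Size factors, the median ratio of a library to the geometric mean over libraries, were 0.906 and 0.952 in wild type. They were 1.013 to 1.064 in the null libraries, so TPM of a typical gene ran higher there. Overlap was counted on TPM without this scaling and was not recounted after it. In triple null the lower value stood close to the higher wild-type one for Yap1 (2.25 against 2.15 TPM) and Stk4 (123 against 112). The same held for Lats1 (22.8 against 21.8 TPM) and Mob1a (109 against 103). Stk3 and Lats2 stood further off, at 24.5 against 20.6 and 14.4 against 10.8 TPM. Separations above wild type, the narrow ones above all, may therefore follow this shift.

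**Figure D4:**
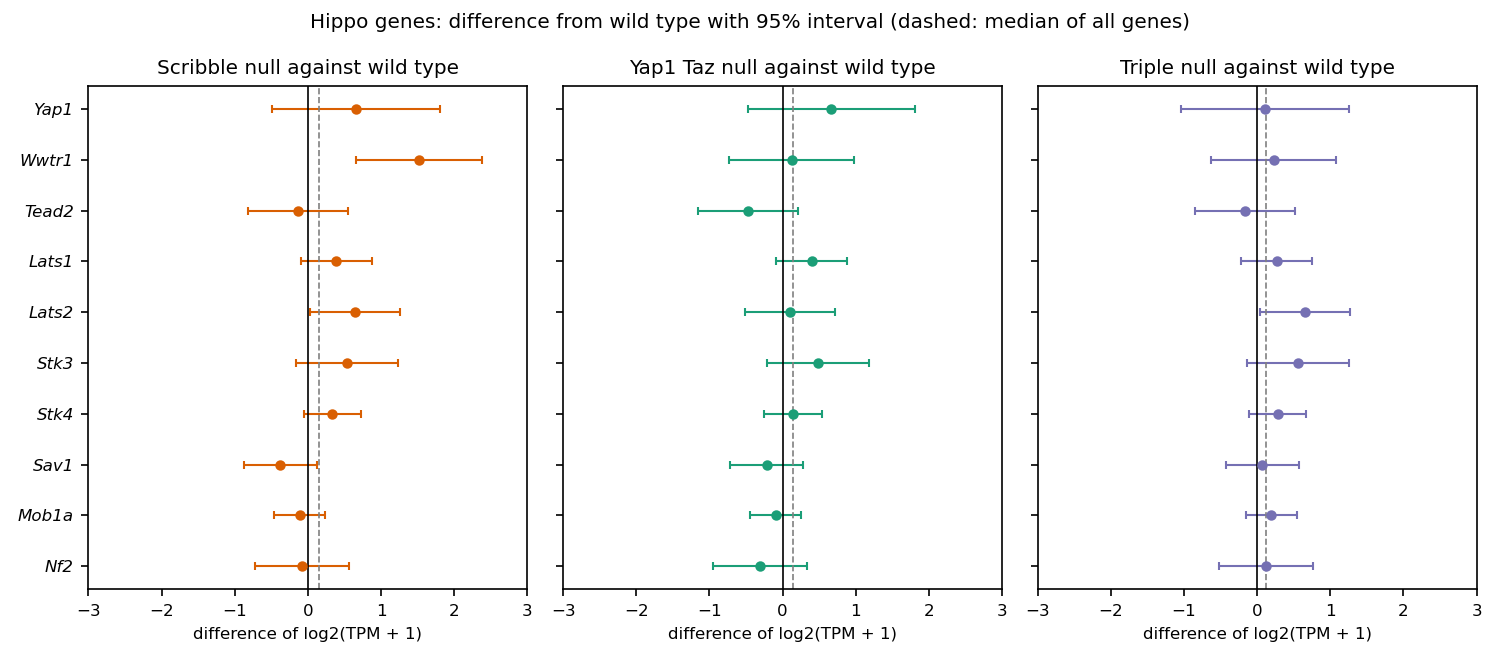
Difference of log2(TPM + 1) from wild type for the 10 Hippo genes in the 3 null genotypes, with points at the estimate and bars for the 95% interval of the limma fit, a solid line at 0 and a dashed line at the median of all genes. The interval lies above 0 for Wwtr1 and Lats2 in Scribble null and for Lats2 in triple null, and no adjusted p was under 0.05.

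Removing Yap1 and Taz on top of Scribble was read from triple null against Scribble null. Wwtr1 was 1.92 and 0.775 TPM in triple null, against 5.32 and 3.91 TPM in Scribble null, a log2 difference of -1.29 (-2.15 to -0.44) that did not pass over all genes (limma, adjusted p = 0.329). Yap1 was 2.25 and 2.37 TPM in triple null, against 5.83 and 2.45 TPM in Scribble null, a difference of -0.55 (-1.70 to 0.59, adjusted p = 0.783). Sav1 and Mob1a were higher in both triple null libraries than in both Scribble null ones, by 0.45 (-0.05 to 0.94) and 0.30 (-0.05 to 0.65), with adjusted p of 0.594 and 0.609. Stk4 and Lats1 were lower in both, by log2 differences of -0.06 and -0.12 (adjusted p = 0.949 and 0.905). None of the 10 was called by limma, against 0.212% of all genes, and 1 had an unadjusted p under 0.05, against 9.15% of all genes. The 2 higher and 4 lower genes with no overlap compare with 19% and 21.1% of all genes. In the table of the whole series 2 were higher and 3 lower.

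Removing Scribble on top of Yap1 and Taz was read from triple null against Yap1 Taz null. Lats2, Sav1, Mob1a and Nf2 were higher in both triple null libraries, by 0.56, 0.28, 0.28 and 0.43 on the log2 scale, with adjusted p of 0.645, 0.808, 0.700 and 0.766. None of the 10 was lower without overlap in TPM. No gene of the 10 was called by limma, against 0.181% of all genes, and 0 had an unadjusted p under 0.05, against 8.41% of all genes. The shares of all genes with no overlap were 18.7% higher and 21.3% lower. In the table of the whole series 4 of the 10 were higher and 1 lower.

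Whether Scribble loss acted differently with Yap1 and Taz lost was tested as a departure from additivity in triple null. Wwtr1 had the largest departure of the 10, at -1.42 (-2.62 to -0.21; limma, adjusted p = 0.278), followed by Yap1 at -1.22 (-2.84 to 0.40, adjusted p = 0.465). Leaving out Yap1 Taz null 2 moved that of Yap1 to -0.58, leaving out Scribble null 1 to -0.73 and leaving out Yap1 Taz null 1 to -1.86. Wwtr1 and Yap1 are themselves targeted in Yap1 Taz null and triple null. Their departures therefore cannot tell an altered response to Scribble loss from the deletion of these genes. The departure of Sav1 was 0.66 (-0.04 to 1.37, adjusted p = 0.369). None of the 10 passed, against 0.635% of all genes called, and 1 of 10 had an unadjusted p under 0.05, against 14.5% of all genes.

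Among other regulators upstream of the kinases, 19 of 20 listed genes were in the files and 16 were tested. By limma 0 were called in each comparison, and 4, 1 and 1 of 16 had an unadjusted p under 0.05 in Scribble null, Yap1 Taz null and triple null against wild type, beside 18.2%, 14.3% and 10.9% of all genes. Their median log2 differences were 0.30, 0.12 and 0.11. Map4k4, a kinase that can activate LATS in place of MST, had the smallest p of this list at 114 and 119 TPM in Scribble null, against 57.7 and 70.4 TPM in wild type. Its groups did not overlap and its difference was 0.86 (0.47 to 1.26, adjusted p = 0.0605). In Yap1 Taz null it was 95.7 and 83.6 TPM and in triple null 74.2 and 93.4 TPM, also above both wild-type values. The differences there were 0.48 and 0.38 (adjusted p = 0.265 and 0.472). Rassf2 and Frmd6 also had higher values in both Scribble null libraries, by 0.61 and 0.73 (adjusted p = 0.112 and 0.216). Both genes were above wild type in the other null genotypes too, by 0.27 and 0.41 in Yap1 Taz null and 0.35 and 0.63 in triple null. RASSF2 binds MST kinases, and FRMD6 is the mammalian relative of the fly protein Expanded. Map4k2, another MAP4K, was 81.9 and 84.6 TPM in Scribble null, against 53.0 and 83.2 TPM in wild type.

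Of relatives of MOB1 and LATS, 0 of 3 were called in any comparison by limma, with 1 at an unadjusted p under 0.05 in Yap1 Taz null against wild type, beside 14.3% of all genes. Their medians were 0.30, 0.23 and 0.26. Mob1b was 28.7 and 28.9 TPM in Yap1 Taz null, against 14.0 and 22.1 TPM in wild type, a difference of 0.68 (adjusted p = 0.335). The NDR kinase gene Stk38 was 93.2 and 94.3 TPM in Scribble null, against 56.7 and 87.6 TPM in wild type (difference 0.41, adjusted p = 0.376). Its paralogue Stk38l had a difference of -0.46 in triple null (adjusted p = 0.602).

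STRIPAK phosphatase components and LIM proteins, which restrain MST and LATS kinases, were all 15 tested and 0 were called by limma, with 3, 5 and 3 of 15 at an unadjusted p under 0.05 in Scribble null, Yap1 Taz null and triple null, beside 18.2%, 14.3% and 10.9% of all genes. Their medians were 0.24, 0.41 and 0.16. Mob4, a STRIPAK subunit, was 59.2 and 58.1 TPM in Scribble null, against 22.3 and 32.2 TPM in wild type, a difference of 1.10 (0.55 to 1.65, adjusted p = 0.0789). In Yap1 Taz null it was 57.9 and 46.5 TPM, also above wild type (difference 0.93, adjusted p = 0.153). In triple null it was 42.6 and 30.7 TPM, overlapping wild type. Wtip, a LIM protein of the Ajuba family, was 5.79 and 5.38 TPM in triple null, against 1.54 and 1.33 TPM in wild type, a difference of 1.44 (0.60 to 2.27, adjusted p = 0.197). It was 5.16 and 5.50 TPM in Yap1 Taz null and 5.02 and 2.19 TPM in Scribble null. The differences there were 1.38 and 0.85 (adjusted p = 0.159 and 0.269), so the rise was not particular to triple null. Mob4 in Scribble null and Yap1 Taz null, and Wtip in every null genotype, stood clear of wild type without passing the test. Ppp2r1a, the scaffold subunit of the phosphatase PP2A, had a difference of 0.41 in Yap1 Taz null (adjusted p = 0.279). Stk24, among the 2 most abundant of the list, was 187 and 166 TPM in triple null and 167 and 155 TPM in wild type, and its difference of 0.13 (adjusted p = 0.738) became -0.0011 after median-ratio scaling.

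Proteins that hold YAP1 and TAZ in the cytoplasm or send them for degradation numbered 14, all tested and 0 called by limma, with 7, 3 and 2 of 14 at an unadjusted p under 0.05 in the same order, beside the same 18.2%, 14.3% and 10.9% of all genes. Their medians were 0.20, 0.10 and 0.12. Csnk1e, a casein kinase that primes YAP1 and TAZ for degradation, was 89.3 and 64.1 TPM in Scribble null, against 34.8 and 46.2 TPM in wild type, a difference of 0.90 (adjusted p = 0.0899). It was also above wild type at 71.6 and 79.6 TPM in Yap1 Taz null and 67.4 and 68.6 TPM in triple null. The differences there were 0.90 and 0.75 (adjusted p = 0.117 and 0.236), so the rise was not particular to Scribble null. Of the 14-3-3 genes, whose proteins hold phosphorylated YAP1, Ywhag and Ywhae had differences of -0.44 and -0.39 in Scribble null and Ywhaz one of 0.28 (adjusted p = 0.170, 0.229 and 0.226). Of the 6 genes of this family on the list, 5 had Scribble null values under both wild-type values and Ywhaz had them above. Over all genes tested, 15.7% lay lower and 33.2% higher without overlap, and none of the 6 passed the test.

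TEAD factors besides Tead2 and the VGLL cofactors, which compete with YAP1 for TEAD, were mostly under 1 TPM, with 2 of 7 tested and 0 called. Vgll4, a repressor of TEAD, was 44.5 and 65.1 TPM in Scribble null, 48.0 and 37.1 in Yap1 Taz null, 42.8 and 38.3 in triple null, and 50.7 and 35.3 TPM in wild type. It was 3.99 to 18.5 times the sum of Yap1 and Wwtr1 over the libraries. Tead3 was 2.16 and 2.24 TPM in Yap1 Taz null, against 1.53 and 1.27 TPM in wild type (difference 0.42, adjusted p = 0.565).

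Of 22 listed YAP and TAZ target genes, 14 were tested, and Ctgf and Ankrd1, common readouts in other cell types, were under 1 TPM in all libraries. Cyr61, a secreted matrix protein, was 9.85 and 6.50 TPM in triple null, against 30.7 and 35.2 TPM in wild type. Scribble null averaged 23.1 ± 2.62 TPM (SD, n = 2). The triple null and wild-type libraries did not overlap, and the log2 difference of -1.91 (-2.46 to -1.36) passed the test (limma, adjusted p = 0.0143). It was also called in triple null against Yap1 Taz null, at 9.85 and 6.50 TPM in triple null and 31.9 and 28.1 TPM in Yap1 Taz null, with a difference of -1.78 (adjusted p = 0.0459). The first call was lost without either wild-type library and without triple null 2 (adjusted p = 0.116, 0.112 and 0.105), and the second without any 1 of the 8 libraries (adjusted p = 0.0727 to 0.308). In each of Scribble null and Yap1 Taz null against wild type, 0 of 14 targets were called by limma, with 3 and 2 at an unadjusted p under 0.05, and in triple null 1 was called lower, with 4 at an unadjusted p under 0.05, beside 18.2%, 14.3% and 10.9% of all genes. The medians were 0.39, 0.18 and 0.21. Ptpn14, a phosphatase that binds YAP1, was 12.0 and 14.7 TPM in Scribble null, against 6.03 and 6.62 TPM in wild type, and Myof, a membrane repair protein, was 26.9 and 28.8 TPM, against 18.2 and 16.0 TPM. Ptpn14 stands in the list of retention proteins too, and Lats2 is also a listed target. The differences of Ptpn14 and Myof were 0.97 and 0.67 (adjusted p = 0.112 and 0.130). Ptpn14 was also above wild type in Yap1 Taz null and triple null, by 0.26 and 0.59. Myof was above it in triple null, by 0.46, and overlapped it in Yap1 Taz null. Asap1, the most abundant target, had a difference of 0.24 in Yap1 Taz null (adjusted p = 0.743).

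**Figure D5:**
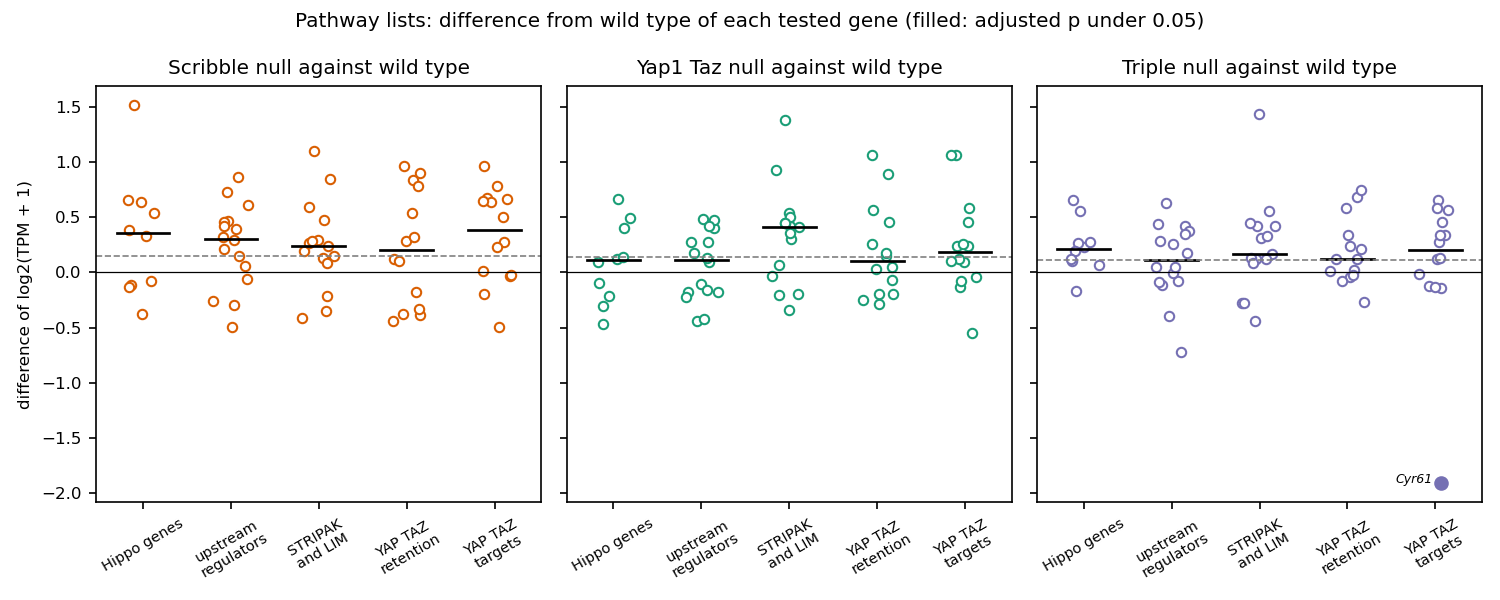
Difference of log2(TPM + 1) from wild type of each tested gene by list, in the 3 null genotypes, with black lines at list medians, a dashed line at the median of all genes and filled points for an adjusted p under 0.05. The filled point is Cyr61 in triple null at -1.91, and all other points are open.

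Over the 8 libraries, the genes whose log2 level followed Wwtr1 most closely among 13071 named genes were Saa4, Nupr1l and Zfand3, with Pearson correlations of 0.978, 0.973 and 0.971. Zfand3 was 33.6 and 27.3 TPM in Scribble null and 19.0 to 23.7 TPM in the other 6 libraries. For Yap1 they were Ighv6-7, Polr3a and Coq5, at 0.984, 0.968 and 0.967. Coq5 was 37.4 and 39.8 TPM in the pair of libraries with high Yap1 and 25.9 to 29.5 TPM in the others. Ighv6-7 was 1.72 and 2.22 TPM in that pair, 0.390 TPM in Scribble null 2 and 0 in the rest. It was thus near the floor and was tested only through that pair. For Tead2 they were Rragc, Tjp3 and Adrb3, at 0.960, 0.941 and 0.927. These correlations describe 8 points that share their genotypes and were the highest of many.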

How the data were processed

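Messenger RNA was measured in 8 libraries of sorted mouse bone marrow stem cells, grouped by the labels into 4 genotypes of 2. RNA was amplified with the Ovation RNA-Seq System v2 and made into Nextera XT libraries, per the labels' protocols. The authors deposited a table of TPM per gene symbol for each library, per the file headers, and each sums to 1000000. TopHat and mm10 are named in the submitters' processing notes, while no source used here names the quantifier or annotation. A deposited table of the whole series holds linear signal values in a unit its header does not name, over 28987 Ensembl identifiers, of which 94.7% matched a symbol, and it was an alternative only.

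Values were tested as log2(TPM + 1), a pseudocount of 1, with limma 3.58.1 in R 4.3.3 (trend, moderated variances) over the 16064 genes that reached 1 TPM in 2 or more libraries. A mean per genotype was fitted to all 8 libraries, with 4 residual and 4 prior degrees of freedom, and p-values were adjusted by Benjamini-Hochberg over all genes, with calls under 0.05. Differences on this scale understate those of low genes. The model was also run on simulated data. Changes were added there only to genes above the levels of Yap1 and Wwtr1, so it says nothing of power for these genes. Coordinates are from GENCODE M21 (GRCm38), and similar transcripts were found with BLAST 2.17.0. The named genes are the 10 Hippo genes, Scrib, and from each pathway list the called genes, the 3 with the smallest p against wild type and the 2 most abundant. The members and lists were chosen with earlier results of these data known. Log2 differences are given for Hippo genes whose groups did not overlap, and for Tead2. Besides the 13 stem cell markers used, 1 listed marker is not reported here.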

Additional observations from a re-analysis of the deposited data

How the results depend on the processing

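None of the 10 Hippo genes was called in any comparison under the main settings or the 15 alternatives run. The number of all genes called moved more. For Scribble null against wild type it was 209, and 127 with no filter on low values, 50 with only the groups compared, 110 with a replicate block and 101 in the table of the whole series. For Yap1 Taz null it was 159, and 56 with only the groups compared and 105 in that table. For triple null it was 93, and 58 with only the groups compared. Triple null against Scribble null gave 34, and 11 and 20 under these same alternatives. Triple null against Yap1 Taz null gave 29, and 17 with no filter, 6 with only the groups compared, 14 with the replicate block and 15 in that table. The departure from additivity gave 102.

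Leaving out each library in turn gave 46 to 227, 52 to 136, 36 to 88, 19 to 60, 11 to 22 and 45 to 138 genes called for these 6 comparisons in the order above. Of 57 gene differences followed, 6 changed sign under an alternative other than leaving out a library. Those of Tead2 became 0.92, 0.31 and 0.32 in the table of the whole series, that of Mob1a in Yap1 Taz null became 0.030 there, that of Yap1 in triple null became -0.070 under quantile normalization and that of Stk24 in triple null -0.0011 under median-ratio scaling. With a library left out, Tead2 in Scribble null ranged from -0.38 to 0.12, Asap1 in Yap1 Taz null from -0.043 to 0.53 and Map4k2 in Scribble null from -7.7e-05 to 0.64. The cause was not tested. The call of Cyr61 in triple null against Yap1 Taz null was lost with no filter, median-ratio scaling, only the groups compared and the replicate block (adjusted p = 0.0869, 0.0525, 0.260 and 0.108), and that against wild type with only the groups compared (0.115). Cyr61 was not analysed in the table of the whole series. With 2 libraries a genotype and no depth in TPM, a p that misses the threshold does not show that levels are alike.
The experiment numbers of the labels are not taken to pair libraries in the main fit, since deviations of same-numbered libraries correlated at -0.0531 to 0.0257. The replicate block above is the alternative that used them.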
